A study of Homo sapiens with 7 samples.

Results

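The enzymes of serine synthesis and of folate-bound carbon transfer were followed while a light-driven stress kinase was switched on in H4, a human neuroglioma cell line. The 9 genes were taken by symbol from the 18817 genes listed in the deposited tables: 3 for serine synthesis (PHGDH, PSAT1, PSPH), 4 for the mitochondrial folate pathway (SHMT2, MTHFD2, MTHFD1L, ALDH1L2) and 2 for its cytosolic counterpart (SHMT1, MTHFD1). The cells carried Cry2Olig-PKR, also called opto-PKR. In it the protein Cry2Olig, which clusters under blue light, is joined to the kinase PKR (gene EIF2AK2). Active PKR phosphorylates eIF2, a factor of translation initiation, and this sets off the integrated stress response (ISR). All groups shared this construct, a DMEM medium with 10% serum, and fibronectin-treated glass-bottom wells under an optoPlate illuminator. They differed in the length of continuous blue light: 0, 60, 120, 240, 480, 600 or 720 min, after which the wells were lysed at once under red light. The design text states the aim of following the opto-PKR response through time.

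A single library per time was made with an adapted CEL-Seq2 protocol, which counts transcript 3' ends with unique molecular identifiers (UMIs). There were 7 libraries in 7 groups, so no value has a replicate. Unlit wells at later times and lit cells lacking opto-PKR were not analysed here, so light and time in the plate cannot be told apart. In bulk RNA, fewer cells with a transcript and less transcript per cell cannot be told apart either.

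The 6 complete gene tables held 7048253 to 8911818 transcripts and 11637813 to 15859529 reads. The table at 480 min held 5266123 transcripts and stops alphabetically at NME1-NME2, so 4 of the 9 genes (MTHFD1, MTHFD1L, MTHFD2, ALDH1L2) have a value there and 5 are missing, which is not a count of 0. Of 8 glial and glioma lineage markers, 5 (VIM, SOX2, SOX9, OLIG2, CD44) had at least 10 counts in every complete library that lists them, NES had 2 to 14 counts, and GFAP and S100B had no row. Endothelial and blood markers reached at least 10 counts throughout in 0 of 3 and 0 of 4 cases. Among fibroblast markers 5 of 6 did, and their summed level was between 250.6 (720 min) and 699.9 (0 min) CPM (counts scaled to a common library size), so it was lower late, when 7 of the enzymes below were higher. Epithelial markers (2 of 5, KRT8 and KRT18) summed to 111.3 to 138 CPM up to 240 min and 193 and 196 CPM at 600 and 720 min, with EPCAM, CDH1 and KRT5 at 2 counts or fewer. Neuronal markers (3 of 5) summed to 333.9 to 397 CPM with no order in time, but single markers went opposite ways. From 0 to 720 min MAP2 went from 72.6 to 492 counts and SYT1 from 387 to 635. Over the same span SNAP25 went from 51.3 to 3.00 counts and TUBB3 from 2766 to 1833. The glial and glioma lineage markers summed to 1557 CPM at 0 min, 1738 at 60 min and 1216 at 720 min, their lowest sum. The part of these differences in the results below was not tested. EIF2AK2 measured 188, 113, 84.5, 66.0, 98.5, 124 and 129.6 CPM in order of time. Whether transcripts of the construct are among these counts, beside those of the native gene, was not tested.

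Cells make serine from a glycolytic intermediate in 3 steps, catalysed by PHGDH, PSAT1 and PSPH. Serine then gives up a carbon unit to tetrahydrofolate and becomes glycine, through SHMT2 in mitochondria or SHMT1 in the cytosol. The unit is oxidised and released as formate by mitochondrial enzymes and is used in the cytosol for purine, thymidylate and methyl-group synthesis. Several of these genes are textbook targets of ATF4, the transcription factor that the ISR induces, and MTHFD2 is known for its high expression in tumours and dividing cells.

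Sequence near the start sites is shown first, because 2 short motifs are linked in the literature to regulation of these genes. The composite motif TGATGNAA is known as the element bound by ATF4 with C/EBP partners, and CACGTG is the E-box bound by MYC and related factors. Both strands were searched from 250 bases before to 50 after each start in RefSeq promoter windows (GRCh38.p14). Windows were found for 6 of the 9 genes and not for PSPH, SHMT2 and ALDH1L2. TGATGNAA occurred in MTHFD1L alone among these 6 genes, at the same genomic position in 3 of its 4 windows. Of 34796 windows in all, 3.63% held it. CACGTG occurred in MTHFD1L and MTHFD1, beside 7.20% of all windows, and did not overlap the composite motif. These shares count windows and not genes, and windows of a gene can overlap. The 3 matches are printed 5′ to 3′ on the plus strand, with the motif in capitals. The composite motif lies upstream of the start in 2 of the MTHFD1L windows and 25 to 32 bases after it in the third, and the MTHFD1 E-box spans positions -15 to -10 from the start.
MTHFD1L, composite motif, chr6:150866346-150866375: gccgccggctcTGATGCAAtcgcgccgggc
MTHFD1L, E-box, chr6:150866320-150866349: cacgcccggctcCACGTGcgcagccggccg
MTHFD1, E-box, chr14:64388326-64388352: ccagtccctaagCACGTGggttgggtt
Each match describes letters in a window and no binding was measured here. PHGDH, PSAT1 and MTHFD2, which rose with light like MTHFD1L, have windows without the composite motif, so no relation between motif and direction is drawn.

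Over the time course 7 of the 9 genes rose: the 3 of serine synthesis and the 4 of the mitochondrial pathway. Neither cytosolic gene passed the test, and both had their lowest level at 720 min. The trend is the fitted log2 change from 0 to 720 min for a straight line on minutes (edgeR quasi-likelihood test, Benjamini-Hochberg adjustment over 13566 genes, threshold 0.05). Of all genes tested, 3.90% rose and 2.96% fell by this test, and 0 of the 9 fell. At an unadjusted p under 0.05, 3129 genes had a trend. Residual spread stands in for replicate error in this test, and it may be technical. It also holds any departure from a straight line, so a gene with a curved course can miss the call. Levels below are CPM after scaling for library composition, compared within a gene only.

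**Figure D1:**
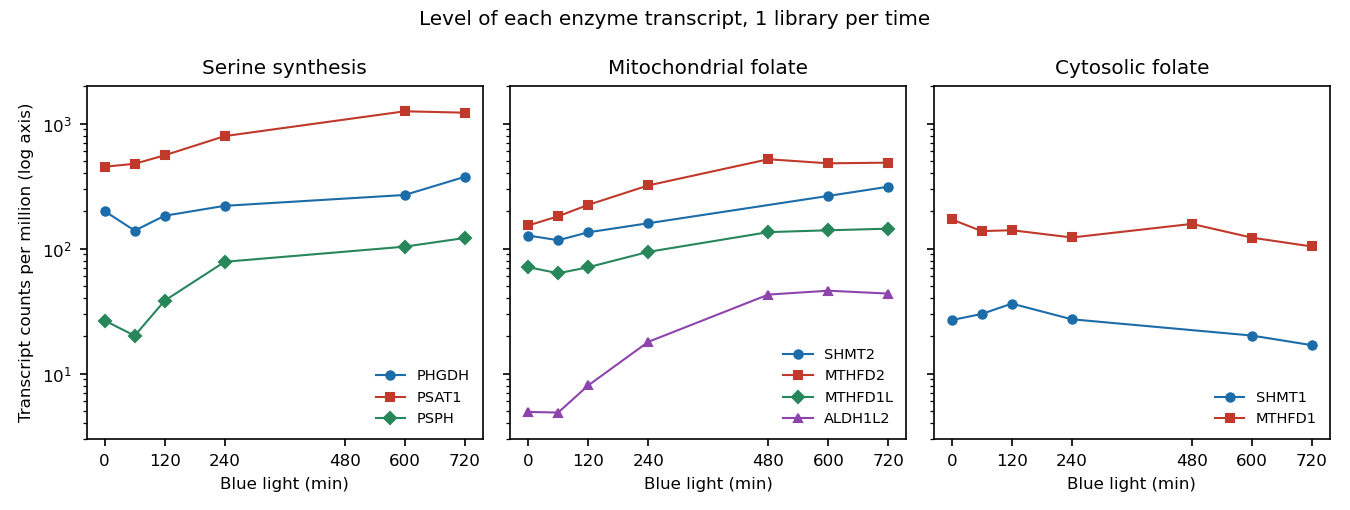
Level of each of the 9 genes in CPM (log axis) against minutes of blue light, 1 point per library, in 3 panels by pathway branch, with no point at 480 min for the 5 genes missing there. All 7 genes of serine synthesis and the mitochondrial pathway end above their 0 min level, and SHMT1 and MTHFD1 end below it.

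In serine synthesis the 3 enzymes rose to different extents and on different schedules. PHGDH, the dehydrogenase of the entry step, measured 199.6 CPM at 0 min, 139 at 60, 183 at 120, 220.1 at 240, 269 at 600 and 376 at 720 min. It was therefore lowest at 60 min, at 0.699 of the unlit level (95% interval 0.646 to 0.756), passed that level by 240 min and was highest in the last library. The intervals are exact binomial ones and cover counting error only. At 720 min PHGDH stood 1.88-fold (1.77 to 2.00) above 0 min. With UMIs in place of transcripts PHGDH was 1.655-fold higher there, and with reads 2.17-fold, both outside that interval. Its trend was 1.04 ± 0.22 (SE, adjusted p = 0.0310). This call was lost without the library at 60 min (adjusted p = 0.0882), 120 min (0.0857), 600 min (0.107) or 720 min (0.233), always with a positive slope.

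PSAT1, the aminotransferase of the middle step, measured 452 CPM at 0 min, 477 at 60, 558 at 120, 795 at 240, 1256 at 600 and 1223 at 720 min. Its level was higher in each library up to 600 min, and the ratio of 720 to 600 min was 0.974 with an interval of 0.948 to 1.00. At 600 min it stood 2.78-fold (2.68 to 2.88) above 0 min, and its trend was 1.55 ± 0.18 (edgeR adjusted p = 0.00376).

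The size of the PSAT1 change depends on how molecules are counted. There are 4096 possible UMIs, and PSAT1 occupied 60.8% of them at 0 min and 93.1% at 600 min, where the correction for repeated use of a UMI is large. Between those libraries PSAT1 was 1.50-fold higher in UMIs, 2.78-fold in corrected transcripts and 4.83-fold in reads. At 720 min it was 1.65-fold higher in UMIs, 2.71-fold in transcripts and 4.36-fold in reads, so the course after 600 min goes up with UMIs and down with reads. Its trend was 0.64 with UMIs and 2.33 with reads, and passed the test both ways. Its binomial intervals cover only part of the counting error for this reason.

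PSPH, the phosphatase that completes serine synthesis, measured 26.6 CPM at 0 min, 20.1 at 60, 38.4 at 120, 78.5 at 240, 104 at 600 and 122 at 720 min. Like PHGDH it was lower at 60 min, at 0.756 of the unlit level (0.609 to 0.936). It then reached 2.95-fold (2.54 to 3.44) at 240 min and 4.58-fold (3.95 to 5.32) at 720 min, the largest ratio of the 3 serine synthesis genes. The trend was 2.29 ± 0.42 (edgeR adjusted p = 0.0189). It was no longer called without the library at 60 min (adjusted p = 0.0608), 120 min (0.0587), 600 min (0.107) or 720 min (0.0706). PSPH counts were not whole numbers in the UMI tables of all 6 libraries, and the handling of reads with several matching loci was not given in the sources used here. Its values may be shared with another locus, as may those of ALDH1L2, whose UMI count at 120 min (62.3) was not whole.

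**Figure D2:**
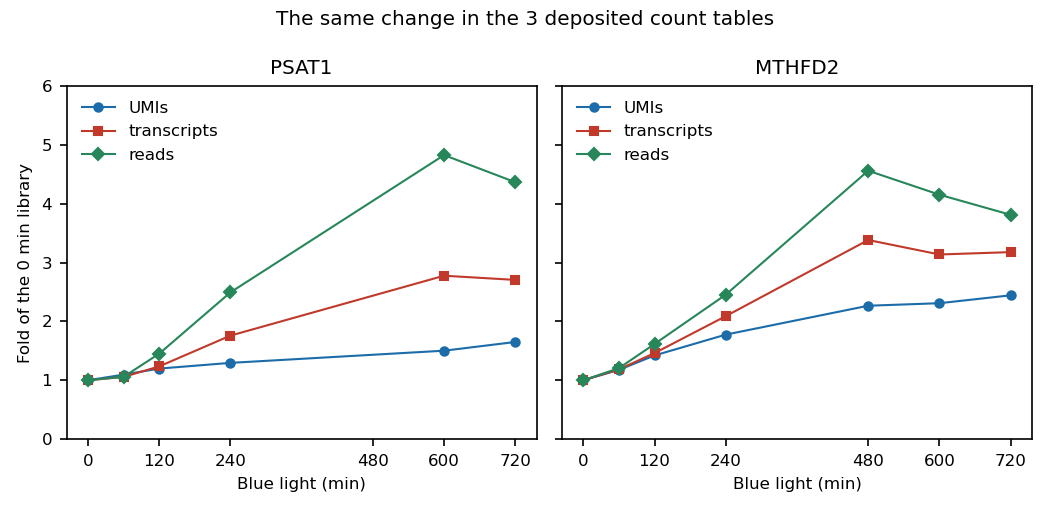
Fold of the 0 min level of PSAT1 and MTHFD2, computed from UMIs, collision-corrected transcripts and reads, against minutes of blue light. PSAT1 at 600 min reads 1.50, 2.78 and 4.83 in the 3 tables and MTHFD2 at 480 min reads 2.27, 3.38 and 4.56.

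In the mitochondrial pathway all 4 enzymes rose. SHMT2, which moves a carbon unit from serine to folate, measured 127 CPM at 0 min, 117 at 60, 135 at 120, 159.7 at 240, 264 at 600 and 313 at 720 min. The libraries at 60 and 120 min did not differ from 0 min beyond counting error, and most of the increase lay after 240 min, with a ratio of 1.96 (1.83 to 2.09) between 720 and 240 min. Its trend was 1.41 ± 0.16 (edgeR adjusted p = 0.00326). At 720 min SHMT2 stood 2.12-fold above 0 min with UMIs, 2.45-fold with transcripts and 2.80-fold with reads.

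MTHFD2, the dehydrogenase and cyclohydrolase of mitochondria, measured 153 CPM at 0 min, 182 at 60, 224 at 120, 321 at 240, 519 at 480, 481 at 600 and 487 at 720 min. It was the gene of this branch that was already above the unlit level at 60 min, by 1.19-fold (1.10 to 1.28), and it was highest at 480 min, at 3.39-fold (3.19 to 3.60). The level at 600 min was 0.927 of that at 480 min (0.890 to 0.966). Its trend was 1.78 ± 0.25 (edgeR adjusted p = 0.00531). MTHFD2 filled 27.2% of possible UMIs at 0 min and 71.5% at 480 min, and its trend was 1.24 with UMIs and 2.16 with reads. The turn after 480 min appears in corrected transcripts and in reads and not in UMIs, where MTHFD2 stood at 2.27-fold at 480 min, 2.31 at 600 and 2.44 at 720 min.

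MTHFD1L, the mitochondrial synthetase that releases formate, measured 71.1 CPM at 0 min, 63.6 at 60, 71.0 at 120, 94.3 at 240, 136 at 480, 140.3 at 600 and 145 at 720 min. Counting error covers its differences from 0 min at 60 and 120 min, and also the differences among the libraries at 480, 600 and 720 min. It stood at 1.33-fold (1.19 to 1.47) at 240 min and 2.03-fold (1.84 to 2.25) at 720 min. The trend was 1.28 ± 0.19 (edgeR adjusted p = 0.00680) and was not called without the library at 600 min (adjusted p = 0.0545).

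ALDH1L2, which oxidises formyl-folate in mitochondria and yields NADPH, had the fewest counts up to 240 min and the largest ratio of the 9 genes from 120 min on. It measured 4.94 CPM at 0 min, 4.89 at 60, 8.06 at 120, 18.0 at 240, 42.9 at 480, 46.1 at 600 and 43.7 at 720 min, from 42, 35, 63, 163, 425, 402 and 331 transcripts. The ratio to 0 min was 3.64 (2.58 to 5.23) at 240 min and 9.33 (6.78 to 13.1) at 600 min, and the last 3 libraries did not differ beyond counting error. Its trend was 3.59 ± 0.45 (edgeR adjusted p = 0.00376).

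In the cytosolic pathway neither gene passed the trend test, and neither was 2-fold from 0 min at any time. SHMT1, the cytosolic counterpart of SHMT2, measured 26.8 CPM at 0 min, 30.1 at 60, 36.3 at 120, 27.2 at 240, 20.2 at 600 and 16.9 at 720 min. It was highest at 120 min, at 1.35-fold (1.13 to 1.62), and lowest at 720 min, at 0.630 (0.503 to 0.786), from 128 transcripts. Its trend was -0.86 ± 0.28 (edgeR adjusted p = 0.109). Without the 0 min library the trend of SHMT1 was -1.04 and passed (adjusted p = 0.0391), and with DESeq2 it passed as well (adjusted p = 0.0396).

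MTHFD1 is the cytosolic enzyme that joins the dehydrogenase, cyclohydrolase and synthetase activities in a single protein. It measured 171 CPM at 0 min, 138 at 60, 141 at 120, 123 at 240, 158 at 480, 123 at 600 and 104 at 720 min. Each lit library was below 0 min beyond counting error, from 0.920 (0.857 to 0.989) at 480 min to 0.607 (0.556 to 0.663) at 720 min. The library at 480 min stood above its neighbours, 1.28-fold (1.19 to 1.39) over 240 min. The fitted trend was -0.40 ± 0.21 (edgeR adjusted p = 0.302).

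**Figure D3:**
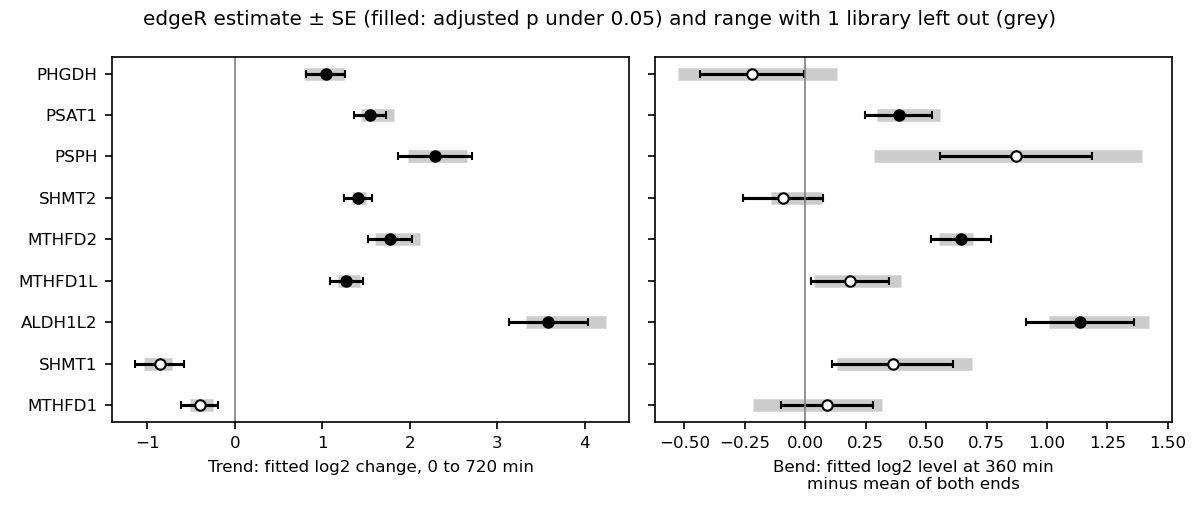
Fitted trend (log2 change from 0 to 720 min) and bend (log2) of the 9 genes with standard errors as bars, filled where the adjusted p is under 0.05, and the range with 1 library left out in grey. Trends run from 1.04 to 3.59 in the 7 genes that rose and are -0.86 and -0.40 in SHMT1 and MTHFD1.

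The shape of the change was tested next. The bend is the level fitted at 360 min by a quadratic minus the mean of the levels fitted at 0 and 720 min, so that a positive bend is an increase that slows or turns, or a decrease that steepens. It was positive and called in 3 of the 9 genes, against 17.5% of all genes tested, and 0 had a downward bend, against 13.7%. These were ALDH1L2 at 1.14 ± 0.22 (SE, edgeR adjusted p = 0.00365), MTHFD2 at 0.64 ± 0.12 (adjusted p = 0.00334) and PSAT1 at 0.39 ± 0.14 (adjusted p = 0.0497). ALDH1L2 and MTHFD2 kept the call when any single library was left out. PSAT1 lost it without any 1 of the libraries at 0, 120, 240, 600 and 720 min, without the 480 min table, which holds no PSAT1 value (adjusted p from 0.0524 to 0.301), and with UMI counts (0.415). PSPH had a bend of 0.87 ± 0.31 (adjusted p = 0.0605). It was called without 0 min (1.39, adjusted p = 0.0154) or 60 min (0.78, 0.0330), with thinned counts (0.0487) and with DESeq2 (0.0304), and was 0.29 without 240 min. PHGDH and SHMT2 had bends of -0.22 and -0.09 with no call, and SHMT1 had a bend of 0.36 (adjusted p = 0.282). On a log time scale PHGDH and SHMT2 were called downward and SHMT1 upward. With minutes on a log or rank scale the bends of ALDH1L2 and MTHFD2 were not called, so their calls hold for minutes on a linear scale.

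Time by time, the genes at least 2-fold above 0 min, among those with at least 50 counts in either library, appeared after 120 min. There were 0 of 8 genes at 60 min, when 2.07% of all genes compared were that much higher, and 0 of 9 at 120 min, when 5.43% were. At 240 min PSPH, MTHFD2 and ALDH1L2 were, 3 of 9 against 10.3%, and the MTHFD2 interval there (1.96 to 2.23) includes 2-fold. At 480 min MTHFD2 and ALDH1L2 were, 2 of the 4 genes listed against 9.49%. PSAT1 and SHMT2 joined at 600 min (5 of 9, against 6.08%) and MTHFD1L at 720 min (6 of 9, against 4.77%). The intervals of SHMT2 at 600 min (1.93 to 2.23) and of MTHFD1L at 720 min include 2-fold. With UMIs, a table compared after the data were seen, 2 of 9 genes (PSPH and ALDH1L2, against 9.62% of all genes) were 2-fold higher at 240 min. At 600 min 3 of 9 were (PSPH, MTHFD2 and ALDH1L2, against 5.55%), and at 720 min 4 of 9, with SHMT2 added (4.25%). With reads 4 of 9 (12.2%), 6 of 9 (7.23%) and 7 of 9 (5.91%) were at 240, 600 and 720 min. The share of all genes above 2-fold was thus highest at 240 min, and the count among the 9 was highest at 720 min. None of the 9 was 2-fold lower at any time, where 0.375%, 2.90%, 5.90%, 6.19%, 4.36% and 4.43% of all genes were.

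By branch, the median log2 ratio to 0 min of serine synthesis was -0.40 at 60 min, 0.30 at 120, 0.81 at 240, 1.47 at 600 and 1.44 at 720 min. That of the mitochondrial pathway was -0.07, 0.32, 0.73, 1.35 and 1.48 at the same times. At 480 min its 3 genes with a value had a median of 1.76. The cytosolic genes gave -0.07, 0.07, -0.23, -0.45 and -0.69. The cytosolic median was the lowest of the 3 from 120 min on. The order of the other branches depends on the count table: at 240, 600 and 720 min serine synthesis had medians of 0.37, 0.59 and 0.73 with UMIs, below 0.61, 1.04 and 1.19 for the mitochondrial pathway, and 1.32, 2.04 and 2.13 with reads, above 0.87, 1.64 and 1.71. The median of all genes tested stayed between -0.03 and -0.004.

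**Figure D4:**
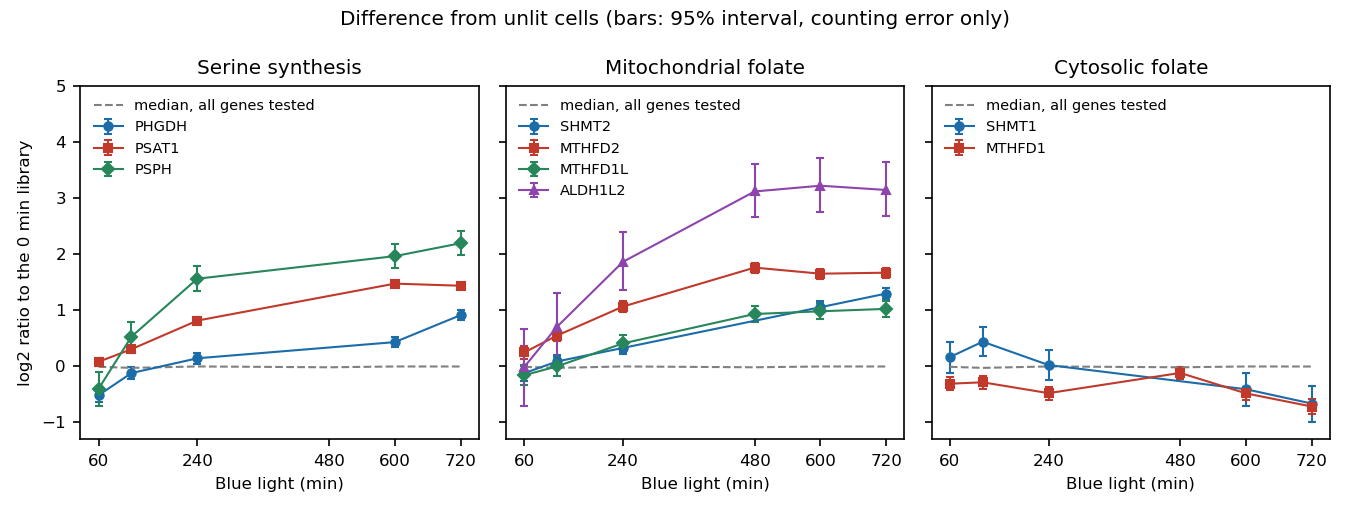
Log2 ratio to 0 min of each of the 9 genes at each later time, by branch, with 95% intervals for counting error as bars and the median of all genes tested as a dashed line. At 600 and 720 min every gene of serine synthesis and the mitochondrial pathway is above 0 and both cytosolic genes are below 0.

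Whether the mitochondrial and cytosolic enzymes parted over time was tested on the ratio of counts of 3 counterpart pairs within each library, which does not depend on library scaling. Only changes of each ratio are compared, since levels of different genes are not on a scale per length. For SHMT2 over SHMT1 the ratio was 4.75 at 0 min, 3.89 at 60, 3.72 at 120, 5.86 at 240, 13.1 at 600 and 18.5 at 720 min. The first 3 values had no upward order and the last 2 were the highest. The log2 ratio followed minutes with Pearson r = 0.969 (exact two-sided permutation p = 0.0111, adjusted 0.0111 over the 3 pairs, n = 6) and Spearman rho = 0.771 (exact permutation p = 0.103, adjusted 0.103). Without 600 and 720 min r was 0.530, so this relation rests on those libraries. Leaving out 240 min gave an exact permutation p of 0.05, and leaving out 600 or 720 min gave 0.0667.

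For MTHFD2 over MTHFD1, which share the dehydrogenase and cyclohydrolase activities, the ratio was 0.894, 1.32, 1.60, 2.61, 3.29, 3.93 and 4.68 in order of time. It was higher in every library than in the one before. Pearson r was 0.959 (exact two-sided permutation p = 0.00218, adjusted 0.00327, n = 7), Spearman rho was 1 (exact permutation p = 0.000397, adjusted 0.000595). With 600 and 720 min left out, r was 0.940. The size of this ratio depends on the count table. At 720 min MTHFD2 and MTHFD1 had 2432 and 717 UMIs, 3690 and 788 transcripts, and 6244 and 1039 reads.

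MTHFD1L over MTHFD1, which share the synthetase activity, gave 0.415, 0.461, 0.506, 0.768, 0.860, 1.15 and 1.39, again without a reversal. Pearson r was 0.982 (exact two-sided permutation p = 2e-04, the smallest possible, adjusted 0.000595, n = 7), with Spearman rho = 1 (exact permutation p = 0.000397, adjusted 0.000595). With 600 and 720 min left out, r was 0.943. Both relations of MTHFD1 share the MTHFD1 counts and are not independent. Over the course the ratios of these pairs therefore moved towards the mitochondrial gene.

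**Figure D5:**
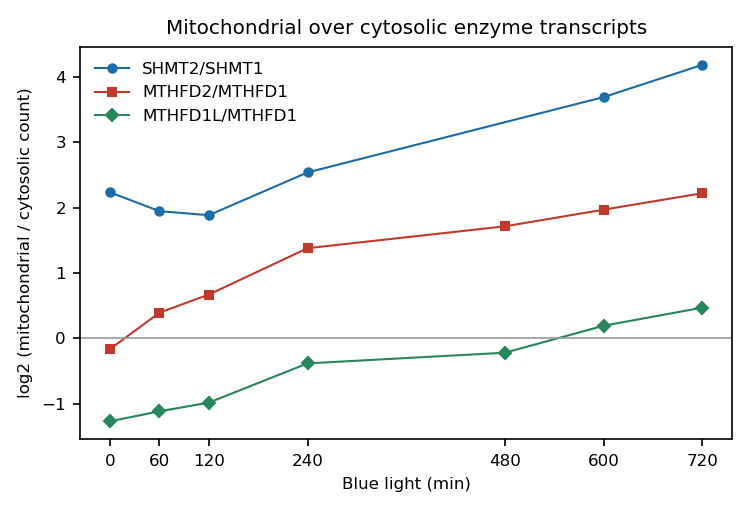
Log2 ratio of transcript counts of the mitochondrial to the cytosolic enzyme against minutes of blue light for 3 counterpart pairs, 1 point per library, with a grey line at equal counts. As plain ratios, MTHFD2/MTHFD1 goes from 0.894 to 4.68 and MTHFD1L/MTHFD1 from 0.415 to 1.39 without a reversal, and SHMT2/SHMT1 goes from 4.75 to 18.5 with its increase after 120 min.

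Other genes of the pathway were read against these 9. In the folate cycle and folate transport 16 of 20 listed genes were tested, with a median trend of -0.24 against -0.02 for all genes. MTHFD2L, the mitochondrial relative of MTHFD2, rose by 1.87 ± 0.46 (edgeR adjusted p = 0.0429), from 18.8 CPM at 0 min through 9.04 at 240 min to 43.5 at 720 min. Its call was lost without any 1 of the libraries at 60, 120, 480, 600 and 720 min (adjusted p from 0.0749 to 0.151). By this test 1 of the 16 genes rose and 0 fell, close to the shares over all genes (3.90% up and 2.96% down). TYMS (thymidylate synthase) had a trend of -0.52 (adjusted p = 0.0862). MTRR and MTR, which keep methionine synthase active and are the synthase itself, bent upward by 0.93 and 0.69. MTRR went from 133.6 CPM to 295 at 240 min and back to 169. SLC19A1, the reduced folate carrier, bent downward by -0.92, from 27.6 to 13.6 CPM at 240 min. These counts, 2 upward and 1 downward bend among 16 genes, are no higher than the shares over all genes (17.5% and 13.7%). The MTR call was lost without 720 min (adjusted p = 0.0705) and that of SLC19A1 without 240 min (0.188).

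Among carriers of serine and glycine, 10 of 14 were tested and 4 rose, against 3.90% of all genes, with a median trend of 0.36. SLC6A9, the glycine transporter GLYT1, rose by 3.63 ± 0.35 (edgeR adjusted p = 0.00195), from 27.0 CPM at 0 min to 249 at 600 min and 245 at 720 min. The neutral amino acid exchangers SLC1A4 and SLC1A5 rose by 1.64 (adjusted p = 0.0103) and 1.10 (0.00586), and the neutral amino acid transporter SLC38A1 rose by 1.16 (0.0142). The SLC1A5 trend was 0.42 with UMIs and 1.75 with reads and was called both ways. SLC38A2, of the same family, bent upward by 1.04, as did SLC1A4 by 0.57. That is 2 of 10 genes, close to the 17.5% of all genes with an upward bend. SFXN1, a mitochondrial serine carrier, had a trend of 0.02 (adjusted p = 0.961). Without 600 min the trends of SLC1A4, SLC1A5 and SLC38A1 were not called (adjusted p = 0.0827, 0.0619 and 0.107), nor that of SLC1A4 without 60 min (0.0536) or of SLC38A1 without 60 min (0.0673) or 120 min (0.0520). The SLC1A4 bend was lost without 240 min (0.332) or 720 min (0.132).

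Of the genes that use serine, 12 of 12 were tested. CBS, which condenses serine with homocysteine, rose by 1.77 ± 0.24 (edgeR adjusted p = 0.00495), from 78.6 to 230.0 CPM. CTH, the next enzyme on the way to cysteine, bent upward by 2.21 ± 0.22 (adjusted p = 0.000283), from 10.0 CPM at 0 min to 148 at 480 min and 97.6 at 720 min. SPTLC3, a serine palmitoyltransferase subunit, fell by 1.60 (adjusted p = 0.0284), a call lost without 60, 120, 600 or 720 min (0.0775 to 0.165). By trend 1 of the 12 genes rose and 1 fell, beside 3.90% and 2.96% of all genes. SERINC1 bent upward by 0.67 and SERINC2 downward by -1.08, both named as serine incorporators of membranes. Those bends were lost without 0 min (0.0719 and 0.0940) or 240 min (0.132 and 0.162), and that of SERINC1 also without 720 min (0.0899). With CTH, 2 of the 12 genes bent upward and 1 downward, close to or below the shares over all genes (17.5% and 13.7%).

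Among genes that break down serine and glycine, 9 of 17 had enough counts to test, and GLDC, the decarboxylase of the glycine cleavage system, did not. SDSL, a serine dehydratase-like enzyme, rose by 1.82 ± 0.26 (edgeR adjusted p = 0.00718), from 6.83 to 19.9 CPM, a call lost without 600 min (0.0636). By trend 1 of the 9 genes rose and 0 fell, beside 3.90% and 2.96% of all genes. AMT and GCSH, of the glycine cleavage system, and GAMT, which makes creatine, bent downward by -1.50, -0.57 and -0.84. That is 3 of 9 genes, against 13.7% of all genes. GCSH was at 168 CPM at 0 min, 94.6 at 240 min and 154 at 720 min. Without 240 min these bends were not called (0.0674, 0.163 and 0.0659), nor without 0 min (0.239, 0.154 and 0.0788), and AMT was at 3.06 CPM or less.

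In purine synthesis, which takes up formyl groups from folate, 0 of 13 genes had a trend in either direction, a count close to the shares over all genes (3.90% up and 2.96% down). GART, which uses formyl-folate, bent upward by 0.56 (0.34 with UMIs), from 229.7 to 380.2 CPM at 480 min. It was 1 of 13 genes, below the 17.5% of all genes with an upward bend. The 3 downward bends among the 13, against 13.7% of all genes, were those of IMPDH1 (-1.10), PAICS (-0.63) and PRPS1 (-0.54). IMPDH1, of guanine nucleotide synthesis, went from 84.9 CPM to 37.9 at 240 min and 68.3 at 720 min. The PAICS and PRPS1 calls were lost without 0 min (0.0587 and 0.244) or 240 min (0.235 and 0.237), and that of PRPS1 without 60 min (0.0766) or 120 min (0.117). In the methionine cycle, 8 of 10 genes were tested and 0 had a trend, again close to the shares over all genes. MTAP, MAT2A and BHMT2 bent downward by -1.90, -0.79 and -1.19, which is 3 of 8 against 13.7% of all genes. MAT2A, which makes S-adenosylmethionine, was at 131 CPM at 0 min and 58.3 at 240 min. Its call was lost without 0 or 240 min (0.0819 and 0.0862), and that of BHMT2, at 4.24 CPM or less, in 5 of 7 such fits.

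Beside these, 4 of 7 ISR reference genes rose, against 3.90% of all genes: TRIB3, a pseudokinase, by 3.71 ± 0.33 (edgeR adjusted p = 0.00140), ASNS, asparagine synthetase, by 2.37 (0.00183), SESN2 by 2.40 (0.0488) and ATF4 by 0.89 (0.0156). With UMIs and reads the trend of ASNS was 1.35 and 3.17 and that of ATF4 0.51 and 1.17, all called. SESN2 and DDIT3, the transcription factor CHOP, bent upward by 1.73 and 1.40, which is 2 of 7 genes against 17.5% of all genes. ATF4 lost its call without 60 min (0.0846) or 600 min (0.0749), SESN2 lost its trend call with UMIs (0.0532), with reads (0.0516) and without 60, 120, 480, 600 or 720 min (0.0620 to 0.214), and the DDIT3 bend was lost without 60 min (0.0639) or 240 min (0.180).

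The genes whose time courses lay nearest to each of the 9 were found by the root mean square difference in log2 ratio to 0 min over the 5 later complete libraries, among 8380 genes with at least 100 counts in every complete library. For PHGDH these included SSSCA1 and PBDC1 (both 0.16), and for PSAT1 they were TNFRSF10B (0.08), TSEN15 (0.09) and SLC1A4 (0.10). PSPH had no gene nearer than GPT2 (0.28), with TUBE1 and NUPR1 (0.31) next. SHMT2 lay nearest to UBALD2, HRASLS and SLC48A1 (0.11 to 0.12), and MTHFD2 to C17orf51 (0.10), DCLK2 and RP9 (0.14). MTHFD1L was matched by AARS, SLC1A5 and CIRBP (0.10 to 0.11). ALDH1L2, below the count limit itself, was nearest to KRT17 (0.13), SLC6A9 (0.19) and FGF2 (0.27). SHMT1 lay near RBMXL1, MED14 and GALNT11 (0.07 to 0.09), and MTHFD1 near ZBED1, FN1 and PSMD1 (0.03 to 0.06). None of the 9 genes was among the nearest 3 of another, a place ALDH1L2 could not take because of the count limit. With 8380 candidates for 3 places, nothing is drawn from this absence. When 720 min was left out, 12 of the 27 nearest genes remained.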

How the data were processed

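The authors deposited expected counts (reads, UMIs and UMI-collision-corrected transcripts) per gene, with 96 barcode columns, per the file headers. Per the submitters' processing notes, BWA and hg19 were used; versions, the annotation and the counter were not given in the sources used here. Column 4, the primer named in the labels, was used and the 95 others were not. Transcript counts were rounded to whole numbers. Genes reaching 10 counts in 3 or more libraries were fitted with edgeR 4.0.16 in R 4.3.3 (TMM over 6 complete libraries, robust quasi-likelihood test). The 480 min library was scaled to the others over the genes it lists, to an effective size 1.88 times its total. Genes within the range of the incomplete table were fitted on 7 libraries, later ones on 6, a division made once that table was seen, with p-values adjusted together. Fits were checked on simulated data. Single times were compared without a test, from log2 ratios with a prior count of 2 and folds without it, beside 95% intervals. DESeq2 1.42.0, other count tables, filters, time scales, thinning and left-out libraries were alternatives. Named genes are the 9, companion genes called by either test, and the 3 nearest profiles each; TYMS, SFXN1 and GLDC were added after their values were seen, and some genes are not reported here. Members and lists were chosen with earlier results of these data known.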

Additional observations from a re-analysis of the deposited data

How the results depend on the processing

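The trends of SHMT2, MTHFD2, PSAT1 and ALDH1L2 kept their calls under all 17 alternatives, and no trend of the 9 genes changed sign. DESeq2 gave 1572 genes with a trend (930 in the main fit) and 1 downward trend among the 9 (SHMT1). Leaving out single libraries gave 135 to 1481 genes with a trend and 1320 to 4307 with a bend (4238 in the main fit); among the 9 genes, it gave 4 to 7 upward and 0 to 1 downward trends and 2 to 4 upward bends. PHGDH was not called on a log (adjusted p = 0.108) or rank (0.0604) time scale. Upward bends numbered 1 on the log time scale (SHMT1, 0.57, edgeR adjusted p = 0.0277) and 0 on the rank time scale. Downward ones numbered 2 on the log scale, SHMT2 (-0.51, adjusted p = 0.00855) and PHGDH (-0.52, 0.0195). On the log scale bends reversed for ALDH1L2 (-0.42), MTHFD1L (-0.39), MTHFD1 (-0.044), MTHFD2 (-0.11), PSAT1 (-0.27), PSPH (-0.22) and SLC1A4 (-0.23), and on the rank scale for MTHFD1L (-0.063). The MTHFD1 bend was -0.17 in complete tables only. With single libraries left out it was -0.22 (without 720 min) to 0.32, that of PHGDH -0.53 to 0.13 (without 0 min) and that of SHMT2 -0.14 to 0.070 (without 0 min). The SHMT2/SHMT1 Pearson r was 0.938 to 0.995 with single libraries left out, and rho was 0.771. Branch medians (log2) moved for serine synthesis with UMIs at 240, 600 and 720 min (0.37, 0.59 and 0.73) and with reads at 120, 240, 600 and 720 min (0.54, 1.32, 2.04 and 2.13). For the mitochondrial pathway at 480, 600 and 720 min they were 1.18, 1.04 and 1.19 with UMIs and 2.19, 1.64 and 1.71 with reads. With at least 200 counts in place of 50, genes 2-fold from 0 min numbered 135, 493, 1195, 586, 651 and 561 in order of time, in place of 274, 945, 1876, 1014, 1200 and 1044, as fewer genes were compared. Of the nearest profiles 12 of 27 were shared without 720 min. For the other changes the cause was not tested. Counted after the data were seen, 3 in place of 5 of the 9 genes were 2-fold above 0 min at 600 min with UMIs. UMI saturation limits PSAT1, MTHFD2 and the abundant companions SLC1A5, ASNS and ATF4, and low counts limit ALDH1L2. No paired analysis was possible because each time has 1 library.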
